A study of Homo sapiens with 6 samples.

Results

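The genes described here belong to 7 solute carrier (SLC) families, most of whose proteins carry amino acids across the plasma membrane or the lysosomal membrane. They are the 59 entries of the deposited gene table named SLC1A, SLC3A, SLC6A, SLC7A, SLC36A, SLC38A or SLC43A with a number after the letter, out of 26485 entries in all. The rule uses gene names only, but the families were picked with earlier results of these data known. RNA was sequenced from REH cells, an established human B-precursor acute lymphoblastic leukemia line, given 25 µM ML141, an inhibitor of CDC42, for 24 h (3 libraries), or given the solvent DMSO for 24 h (3 libraries). All cells were kept in RPMI medium with fetal bovine serum, penicillin and streptomycin, which supplies amino acids to both groups, and the 3 libraries of a group came from independent experiments. The data cover 1 cell line, 1 dose and 1 time, and measure mRNA, not carrier protein or transport.

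Amino acid carriers work in relays. Concentrative carriers such as the SLC38 proteins use the sodium gradient to load small neutral amino acids such as glutamine, and exchangers such as SLC1A5 and SLC7A5 then trade internal amino acids for others outside. Light chains of the SLC7 family reach the membrane only when bound by a disulfide bridge to a heavy chain, SLC3A2 (CD98, 4F2hc) or SLC3A1 (rBAT), and the light chain sets which amino acids are carried. When amino acids are short or translation is under stress, the kinase GCN2 and its relatives raise the transcription factor ATF4, whose known targets include several of these genes, through a composite C/EBP-ATF site called CARE or amino acid response element.

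The total counts were 10436147 to 12308039 per library with ML141 and 8284299 to 10837224 with DMSO. One count stood for 0.0754 to 0.0926 CPM (the unit of level used below, counts relative to the TMM-scaled library size) with ML141 and 0.0964 to 0.130 CPM with DMSO. Of 12 B-precursor marker genes, all had counts, VPREB1 a single count in all, and their summed level was 8830 to 9070 CPM with ML141 and 6600 to 7190 CPM with DMSO. T cell markers (6 genes, with CD2, CD3D and CD3G at 0) summed to at most 1.55 CPM with ML141 and 0.771 CPM with DMSO, and erythroid markers (5 genes, with HBA1, HBB and HBG1 at 0) to 0 CPM and at most 0.104 CPM. The 6 myeloid genes, led by MPO, summed to 29.3 to 31.0 CPM with ML141 and 43.8 to 45.3 CPM with DMSO, and ELANE was at 0. The 5 stromal genes, nearly all PDGFRB, summed to 34.4 to 41.6 CPM with ML141 and 41.1 to 46.5 CPM with DMSO, and COL3A1 and THY1 were at 0. The part of these marker levels in the results was not tested.

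Of the 59 genes, 24 had enough counts to be tested, 21 had no count in any library and 14 had at most 46 counts over all 6 libraries. With ML141 12 of the 24 rose and 4 fell by edgeR's quasi-likelihood test at an adjusted p of 0.05 (Benjamini-Hochberg over 11454 genes), and 8 did not pass. That is 66.7% of the tested transporter genes, against 54.4% of all tested genes. In the upward direction it is 12 of 24, against 26.7% of all tested genes, and in the downward direction 4 of 24, against 27.7%. The median log2 fold change was 0.41 for the 24 genes and 0.02 for all genes tested. More than 2-fold rises were seen in 5 of the 24 genes, against 6.76% of all genes, and more than 2-fold falls in 2, against 6.24%. The groups did not overlap in 18 of the 24, against 61.2% of all genes. SLC6A9, with a more than 2-fold rise, and SLC36A1, whose groups did not overlap, had fewer than 10 counts in each DMSO library. Both passed the low-count filter only through the ML141 libraries. A stricter filter left both out, and 11 of 22 tested transporter genes then rose and 4 fell. Of all 10981 genes tested with that filter, 2911 rose and 3024 fell. The remaining 275 SLC genes of the table gave 36 higher and 46 lower of 137 tested, with a median of -0.12. With upper-quartile factors or library totals as the scaling, which moved the median of all genes up by 0.10 and 0.17, 15 of the 24 rose and 4 fell, and of all changed genes 59.5% and 66.1% were higher, against 49.1% with TMM. Since each library is a bulk sample, a change in the number of cells of a kind and in RNA per cell cannot be told apart.

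**Figure D1:**
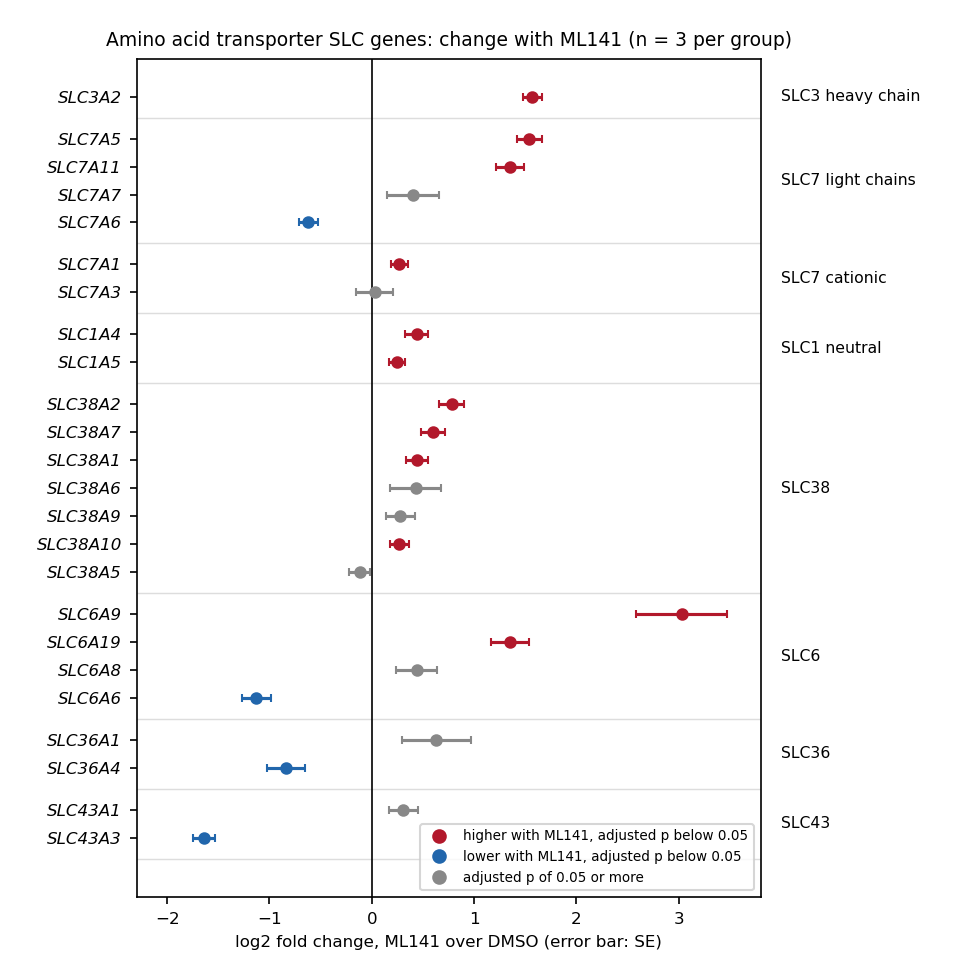
Log2 fold change (ML141 over DMSO, x axis) of the 24 tested amino acid transporter genes, grouped by family and role, with the standard error as the bar and color for the call. SLC6A9, SLC3A2, SLC7A5, SLC7A11 and SLC6A19 lie above 1, while SLC43A3 and SLC6A6 lie below -1.

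The transcripts of the heavy chain SLC3A2 and of its light chain SLC7A5 rose by like amounts, so the sequences before their starts are shown first, as RefSeq gives them on GRCh38.p14, 250 bases each, 5′ to 3′ on the strand of the gene. Capitals in the SLC3A2 sequence mark a match to the core of the antioxidant response element, TGACNNNGC, which also resembles a site for AP-1 factors. The SLC3A2 sequence is chr11:62881449-62881698 on the plus strand, before the most downstream of 3 listed starts and chosen because it overlaps no annotated exon, and the SLC7A5 sequence is chr16:87869508-87869757 on the minus strand.

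SLC3A2: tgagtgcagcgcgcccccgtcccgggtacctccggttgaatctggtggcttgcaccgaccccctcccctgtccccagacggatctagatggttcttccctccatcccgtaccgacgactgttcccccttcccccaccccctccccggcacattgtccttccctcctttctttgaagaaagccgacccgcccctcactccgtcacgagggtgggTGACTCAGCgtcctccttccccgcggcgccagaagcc

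SLC7A5: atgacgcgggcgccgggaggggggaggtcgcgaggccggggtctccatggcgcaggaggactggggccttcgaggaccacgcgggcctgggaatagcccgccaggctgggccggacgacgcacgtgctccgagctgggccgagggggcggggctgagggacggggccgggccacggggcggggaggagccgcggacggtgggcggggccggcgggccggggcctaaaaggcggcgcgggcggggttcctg

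The SLC7A5 stretch has 79.6% G and C and the SLC3A2 stretch 65.6%. Both lie outside annotated exons. The windows of the other SLC3A2 starts overlap exons and hold no match to either motif searched for here.

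SLC3A2, the heavy chain, had 544, 495 and 508 CPM in ML141 libraries 1, 2 and 3, against 195, 162 and 166 CPM in DMSO libraries 1, 2 and 3. Each library with ML141 stood more than 2-fold above each with DMSO. SLC3A2 rose 2.96-fold, or 1.57 on the log2 scale with an SE of 0.0904 (edgeR adjusted p = 1.67e-07). On hg38 it spans chromosome 11, 62856102 to 62888875. SLC3A1, the heavy chain of kidney and intestine, had 3 counts in all ML141 libraries together and 5 in DMSO, too few to test.

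SLC7A5 (LAT1), which imports leucine and other large neutral amino acids in exchange for glutamine, was the most abundant of the transporter transcripts. Its level was 1093, 1586 and 1229.6 CPM with ML141, against 466, 438 and 440.4 CPM with DMSO. The groups were far apart, and the ML141 libraries spread more than the DMSO libraries (SD 255 and 15.9 CPM, n = 3 each). The log2 fold change was 1.54 (SE 0.122, edgeR adjusted p = 1.30e-06). It lies on chromosome 16 from 87830023 to 87869488. Its pseudogenes SLC7A5P1 and SLC7A5P2, which are near-identical to part of it, had 10 and 28 counts with ML141 and 18 and 22 with DMSO.

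SLC7A11 (xCT) pairs with the same heavy chain and imports cystine in exchange for glutamate, which feeds glutathione synthesis. It had 194, 136 and 138 CPM with ML141, against 65.9, 63.9 and 54.7 CPM with DMSO. ML141 library 1 stood above the other two, and all 3 stood above the DMSO libraries, a change of 1.35 on the log2 scale (SE 0.138, edgeR adjusted p = 8.40e-06). The gene spans chromosome 4 from 138164097 to 138242349. Its antisense partner SLC7A11-AS1 had 0 counts with ML141 and 2 with DMSO.

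The light chain SLC7A6 (y+LAT2), which exports cationic amino acids in exchange for neutral ones and sodium, went the other way. Its level was 58.7, 70.8 and 67.9 CPM with ML141, against 105, 97.9 and 99.6 CPM with DMSO. The groups did not overlap, and the log2 fold change was -0.62 (SE 0.0943, edgeR adjusted p = 1.86e-04). SLC7A6OS on the opposite strand covers 53% of its exon bases, and since the library kit keeps no strand information the split of reads between them is uncertain. SLC7A6OS itself was at 23.4 ± 1.31 CPM with ML141 and 21.8 ± 1.68 CPM with DMSO (log2 fold change 0.10, edgeR adjusted p = 0.505). The close relative SLC7A7 (y+LAT1) was at 3.44 ± 0.392 and 2.59 ± 0.668 CPM, with overlapping libraries (edgeR adjusted p = 0.198). The light chains SLC7A8, SLC7A9, SLC7A10 and SLC7A13 had 0 to 11 counts over the 6 libraries.

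Per kilobase of exon, the light chains were set beside each other. The length of SLC7A6 was all its exon bases, although SLC7A6OS covers 53% of them. The effect of that overlap on the shares was not tested. SLC7A5 made up 88.5%, 92.9% and 91.1% of the summed light-chain level (SLC7A5, SLC7A6, SLC7A7 and SLC7A11) in the ML141 libraries and 80.6%, 80.8% and 81.0% in the DMSO libraries. The share of SLC7A6 was 3.43%, 2.99% and 3.63% with ML141, against 13.1%, 13.0% and 13.2% with DMSO. In both cases the groups did not overlap, and the 2-sided exact permutation p was 0.1, the smallest that 3 against 3 can give. The share of SLC7A11 was 5.39% ± 1.90 with ML141 and 5.27% ± 0.433 with DMSO (SD, n = 3 each; exact permutation p = 0.9), although its own level rose 2.54-fold. The summed light chains stood at 1.31, 2.00 and 1.54 times the level of SLC3A2 with ML141 and 1.72, 1.94 and 1.89 times with DMSO, ranges that overlap (exact permutation p = 0.4).

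**Figure D2:**
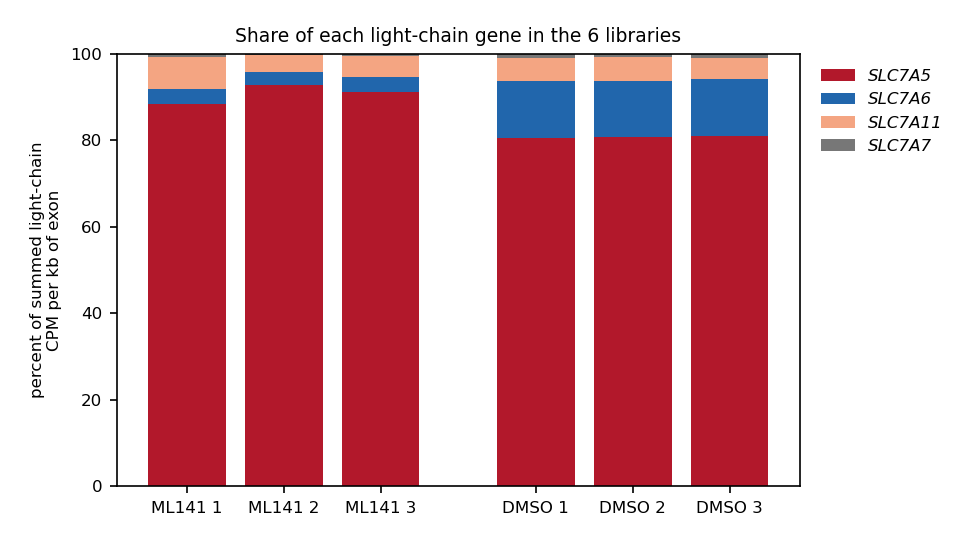
Stacked bars of the share (percent, y axis) of each SLC7 light-chain gene in the summed light-chain CPM per kb of exon, for the 3 ML141 libraries (left) and the 3 DMSO libraries (right). The SLC7A6 share is 2.99% to 3.63% with ML141 and 13.0% to 13.2% with DMSO, and the SLC7A5 share is above 88% with ML141 and near 81.0% with DMSO. The level of SLC7A6 is uncertain where SLC7A6OS overlaps its exons.

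The cationic amino acid transporters carry arginine and lysine without a heavy chain. SLC7A1 (CAT1), the broadly expressed member (chromosome 13, 29509410 to 29595688), had 363, 423 and 368 CPM with ML141, against 332, 318 and 304 CPM with DMSO. The libraries did not overlap, but the rise was small, a change of 0.27 on the log2 scale (SE 0.0839, edgeR adjusted p = 0.0156). Without DMSO replicate 2 or DMSO replicate 3 the adjusted p was 0.0624 and 0.0739. SLC7A3 (CAT3), best known from the brain, was at 21.9 ± 5.88 CPM with ML141 and 21.6 ± 1.92 CPM with DMSO (edgeR adjusted p = 0.904), with ML141 library 1 at 15.2 CPM and the others at 26.0 and 24.6 CPM. SLC7A2, SLC7A4 and SLC7A14 had 3, 0 and 1 counts in all.

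The neutral exchangers of the SLC1 family both rose by small amounts. SLC1A4 (ASCT1), which exchanges alanine, serine and cysteine, had 80.3, 80.5 and 80.4 CPM with ML141, against 70.8, 53.9 and 54.0 CPM with DMSO. DMSO library 1 was the nearest to the ML141 libraries, and the log2 fold change was 0.44 (SE 0.112, edgeR adjusted p = 0.00571). SLC1A5 (ASCT2), a main glutamine exchanger of dividing cells (chromosome 19, 46774883 to 46788594), had 285, 309.6 and 275 CPM with ML141, against 253, 232 and 246 CPM with DMSO. Its log2 fold change was 0.25 (SE 0.0786, edgeR adjusted p = 0.0175), and the adjusted p was 0.0997 without DMSO replicate 2 and 0.0527 without DMSO replicate 3. AC008622.2, annotated on the opposite strand and not analysed here, covers 23.4% of the SLC1A5 exon bases. The glutamate and aspartate transporters of the same family were near or at 0. SLC1A3 had 18 counts with ML141 and 28 with DMSO, and SLC1A1, SLC1A2, SLC1A6 and SLC1A7 had none, which allows up to 0.0841 CPM over the 3 ML141 libraries and 0.108 CPM over the 3 DMSO libraries (3 counts, counting error only).

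Of the 11 SLC38 genes, the sodium-coupled neutral amino acid transporters, 7 were tested, 4 rose and 0 fell. The share that changed was 57.1%, against 54.4% of all tested genes, and all of it was upward. Among all tested genes 26.7% were higher and 27.7% lower. With only 7 tested genes, a difference of this family from those shares cannot be judged. SLC38A2 (SNAT2), known to be induced by amino acid shortage, had 665, 538 and 491 CPM with ML141, against 377, 317 and 294 CPM with DMSO. Library 1 was the highest in both groups, and the groups did not overlap. The log2 fold change was 0.78 (SE 0.121, edgeR adjusted p = 2.10e-04). SLC38A1 (SNAT1), a glutamine loader next to SLC38A2 on chromosome 12, had 549.6, 445 and 429.9 CPM with ML141, against 378, 357 and 315 CPM with DMSO. Library 1 was again the highest in both groups, and the change was 0.44 on the log2 scale (SE 0.106, edgeR adjusted p = 0.00391).

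Of the intracellular SLC38 carriers, SLC38A7 (SNAT7), which releases glutamine from lysosomes, rose. It had 26.3, 28.4 and 25.3 CPM with ML141, against 18.4, 17.3 and 17.1 CPM with DMSO, a change of 0.60 on the log2 scale (SE 0.116, edgeR adjusted p = 9.36e-04). SLC38A10 stood at 66.5, 72.8 and 69.2 CPM with ML141, against 53.7, 59.2 and 59.8 CPM with DMSO. Its change of 0.27 on the log2 scale (SE 0.0913, edgeR adjusted p = 0.0242) passed the test with all libraries and failed it in each of 5 fits that left a library out, all but the fit without ML141 replicate 1 (adjusted p 0.0502 to 0.0952). SLC38A9, the lysosomal arginine sensor of mTORC1, was at 40.2 ± 8.02 CPM with ML141 and 33.1 ± 3.69 CPM with DMSO, with overlapping libraries (edgeR adjusted p = 0.121; 0.0154 with library totals). With the replicate number as a block in the fit, the edgeR adjusted p of SLC38A9 was 0.0339. SLC38A5 (SNAT5), a glutamine and serine carrier, was at 164 ± 23.1 CPM with ML141 and 179 ± 6.27 CPM with DMSO, also with overlapping libraries (edgeR adjusted p = 0.332). Without ML141 replicate 2, SLC38A5 was lower by the test, with a log2 fold change of -0.24 (adjusted p = 0.0258). SLC38A6 was at 3.96 ± 0.986 CPM with ML141 and 2.93 ± 0.214 CPM with DMSO (edgeR adjusted p = 0.166). TRMT5 on the opposite strand covers 12.2% of the SLC38A6 exon bases. The other 4 SLC38 genes had at most 8 counts in all.

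**Figure D3:**
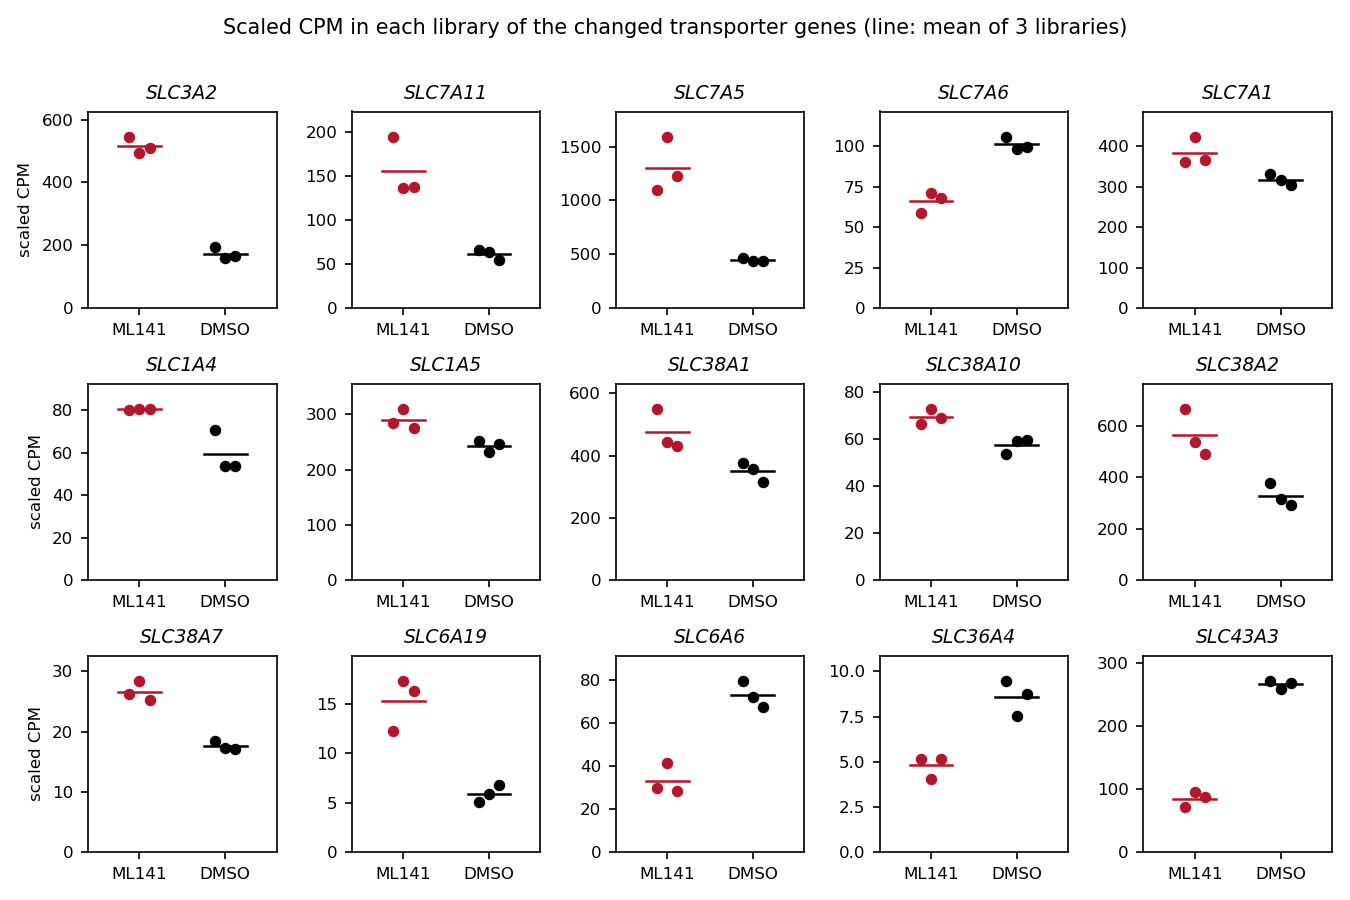
Scaled CPM (y axis, from 0) in each library for the 15 changed transporter genes that averaged 5 CPM or more, with ML141 on the left and DMSO on the right of each panel and lines at the means of 3 libraries. In each of the 15 panels the 3 ML141 points lie wholly above or wholly below the 3 DMSO points, below in SLC7A6, SLC6A6, SLC36A4 and SLC43A3.

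The SLC6 family holds sodium- and chloride-coupled carriers, and here its changed genes went both ways. Of 12 genes for carriers of amino acids, glycine, taurine and creatine, 4 were tested, 2 rose and 1 fell. Among all tested genes 54.4% changed, with 26.7% higher and 27.7% lower. With only 4 tested genes, a difference of this group from those shares cannot be judged. SLC6A19 (B0AT1), known as the neutral amino acid carrier of the intestinal and kidney brush border (chromosome 5, 1201595 to 1225117), had 12.2, 17.3 and 16.2 CPM with ML141, against 5.06, 5.91 and 6.85 CPM with DMSO. The groups did not overlap, and the log2 fold change was 1.35 (SE 0.185, edgeR adjusted p = 7.97e-05). SLC6A6 (TauT), the taurine carrier (chromosome 3, 14402576 to 14489349), had 29.8, 41.7 and 28.4 CPM with ML141, against 79.5, 72.0 and 67.4 CPM with DMSO. It fell by 1.13 on the log2 scale (SE 0.142, edgeR adjusted p = 4.16e-05). SLC6A9 (GlyT1), the glycine carrier, was nearly silent with DMSO, at 4, 1 and 2 counts in libraries 1, 2 and 3, against 21, 29 and 27 counts with ML141. Summed over libraries and divided by their summed scaled sizes, the counts gave a ratio of 8.55, with a 95% Clopper-Pearson interval of 3.96 to 22.0 that covers counting error only, and the fitted log2 fold change was 3.03 (SE 0.444, edgeR adjusted p = 1.34e-04). That fitted value was 2.64 without DMSO replicate 2 and 3.75 without DMSO replicate 1, the DMSO library with the most counts of this gene. CCDC24 on the opposite strand covers 7.67% of the SLC6A9 exon bases, and its part in these few counts was not tested. The creatine carrier SLC6A8 was at 5.22 ± 0.724 CPM with ML141 and 3.84 ± 0.182 CPM with DMSO, with a change of 0.44 on the log2 scale (SE 0.201, edgeR adjusted p = 0.0812; 0.0235 with library totals). None of the 7 monoamine and GABA carriers reached the test, and 4 of them had no count.

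The SLC36 carriers move mostly small neutral amino acids out of lysosomes or into cells. SLC36A4 (PAT4), which has high affinity for proline and tryptophan, had 5.19, 4.07 and 5.16 CPM with ML141, against 9.46, 7.57 and 8.77 CPM with DMSO. It fell by 0.84 on the log2 scale (SE 0.185, edgeR adjusted p = 0.00232). SLC36A1 (PAT1) was 1.55-fold higher in summed counts, but the counting interval of 0.90 to 2.76 spans no change, and it did not pass the test (edgeR adjusted p = 0.14), even though the groups did not overlap. SLC36A2 and SLC36A3 had no counts.

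The largest fall was in SLC43A3, which belongs to the family of the SLC43A1 (LAT3) and SLC43A2 (LAT4) leucine facilitators but is known as a purine nucleobase transporter, ENBT1. It had 71.5, 95.5 and 87.9 CPM with ML141, against 271, 259 and 269 CPM with DMSO. Its highest ML141 library lay under its lowest DMSO library by more than 2-fold, and the log2 fold change was -1.64 (SE 0.103, edgeR adjusted p = 2.64e-07). On hg38 SLC43A3 occupies chromosome 11, 57406954 to 57427580, and 10.5% of its exon bases are shared with AP000781.2 on the same strand. SLC43A1 was at 32.0 ± 5.67 CPM with ML141 and 25.8 ± 2.44 CPM with DMSO (log2 fold change 0.31, edgeR adjusted p = 0.0824), and without ML141 replicate 1 the adjusted p was 0.00493. With the replicate number as a block in the fit, the edgeR adjusted p of SLC43A1 was 0.0223. SLC43A2 had 1 count with ML141 and 3 with DMSO.

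The order of the transcripts changed between the groups. Per kilobase of exon, the most abundant with ML141 were SLC7A5 at 284 ± 55.5, SLC3A2 at 194 ± 9.59, SLC38A2 at 113 ± 18.0 and SLC1A5 at 87.0 ± 5.30 CPM per kb (SD, n = 3). With DMSO the order was SLC7A5 at 97.7 ± 3.47, SLC43A3 at 92.0 ± 2.23, SLC1A5 at 73.2 ± 3.11, SLC38A2 at 65.8 ± 8.53 and SLC3A2 at 65.7 ± 6.81 CPM per kb. In the DMSO order the means of SLC38A2 and SLC3A2 differed by less than the SD of either. With ML141 SLC7A1, SLC38A5 and SLC38A1 were likewise close, at 52.3 ± 4.54, 52.2 ± 7.33 and 50.9 ± 6.99 CPM per kb. SLC7A11 lay lower on this scale, at 16.2 ± 3.41 CPM per kb with ML141 and 6.38 ± 0.621 with DMSO. SLC7A5 alone made up 25.1%, 33.1% and 28.9% of the summed CPM per kb of all 59 genes in the ML141 libraries and 15.3% to 15.7% in the DMSO libraries. The 59 genes together took 0.445%, 0.501% and 0.438% of all counts with ML141, against 0.275%, 0.255% and 0.256% with DMSO.

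**Figure D4:**
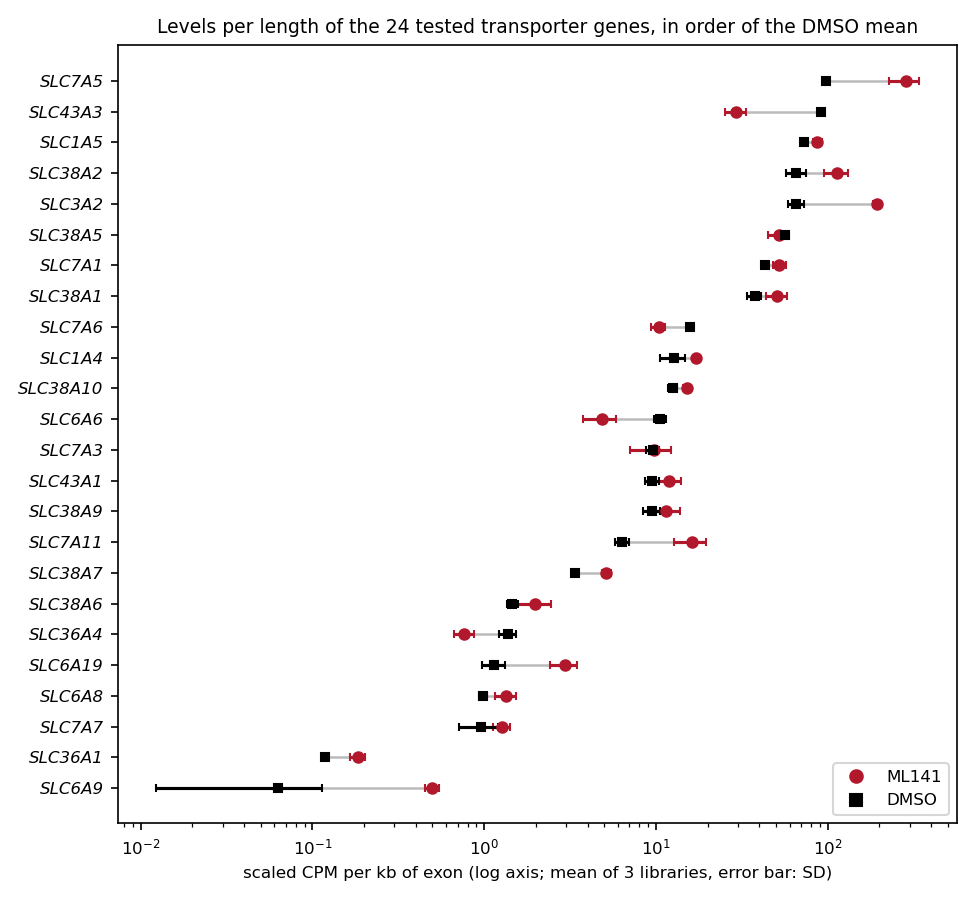
Mean scaled CPM per kb of exon (log x axis, bars are SD of 3 libraries) of the 24 tested transporter genes with ML141 (circles) and DMSO (squares), in order of the DMSO mean. SLC7A5 leads in both groups, and SLC43A3, second with DMSO at 92.0 CPM per kb, is at 29.4 with ML141.

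Replicates within a group were not ranked alike for all genes. ML141 library 1 was the highest of its group for SLC3A2, SLC7A11, SLC38A1, SLC38A2 and SLC38A9, and the lowest for SLC7A5, SLC7A6, SLC6A19, SLC43A3 and SLC7A3. ML141 library 2 was the highest for SLC7A5, SLC7A1, SLC1A5, SLC6A6 and SLC43A3. DMSO library 1 was the highest of its group for 18 of the 24 genes. The groups stayed apart for the 15 genes in the plot of levels by library.

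The CARE core was searched for as TGATGNAA on both strands of RefSeq windows from 250 bases before to 50 bases after each listed start. Windows were found for 44 of the 59 genes, 20 of them tested, and the tested genes SLC43A3, SLC6A6, SLC7A11 and SLC7A3 have none in the table. Of the 11 genes that rose and have a window, 5 held a match, and of the 2 that fell and the 7 that did not pass, 0 did. Among all genes with a window, 4.46% of 27305 genes, or 3.62% of 35116 windows, held a match. Genes with several listed starts have more windows to match in. The matches are shown in capitals within 30 bases of the gene's strand, and they read TGATGNAA on that strand or its reverse complement.

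SLC1A4, chr2:64989381-64989410: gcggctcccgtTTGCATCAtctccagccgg

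SLC1A5, chr19:46784893-46784922: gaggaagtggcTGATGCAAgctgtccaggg

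SLC38A1, chr12:46266502-46266531: tcagacccgaaTGATGAAAagggatcagct

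SLC3A2, chr11:62881719-62881748: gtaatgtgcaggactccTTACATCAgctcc

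SLC7A1, chr13:29595663-29595692: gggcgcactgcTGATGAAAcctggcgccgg

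With the first transcribed base as 1 and the base before it as -1, the SLC1A5 match covers positions -97 to -90 of a start that lies within the gene, and in SLC1A4 and SLC38A1 it spans the start. In SLC3A2 it covers positions 38 to 45 and in SLC7A1 positions 8 to 15. On the log2 scale SLC3A2 rose by 1.57, the largest change among the genes with a match. SLC1A4, SLC1A5, SLC38A1 and SLC7A1 rose by 0.44, 0.25, 0.44 and 0.27. SLC7A5, SLC38A2, SLC38A7, SLC38A10, SLC6A9 and SLC6A19 rose with no match in their windows. The antioxidant core TGACNNNGC, searched in the same way, was found in 4 of the 11 genes that rose (SLC1A5, SLC3A2, SLC7A1 and SLC7A5), 1 of the 2 that fell and 1 of the 7 that did not pass, against 16.1% of all genes. The gene that fell with a match was SLC7A6, with 2 matches before its start.

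SLC7A6, chr16:68264319-68264348: gctcgagcccTGACGAGGCagctgggggct

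SLC7A6, chr16:68264487-68264516: cggcggcgggTGACGTGGCggggcggggcc

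A match describes the letters only, and binding was not measured.

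Other genes of amino acid handling were read from 4 lists. In the list of the GCN2-ATF4 amino acid response, 24 of 34 tested genes rose (70.6%, against 26.7% of all tested genes) and 4 fell (11.8%, against 27.7%), and the median was 0.93 on the log2 scale, against 0.02 for all genes. TRIB3, a pseudokinase target of ATF4, averaged 491.7 ± 18.9 CPM with ML141 and 35.2 ± 3.43 CPM with DMSO. On the log2 scale, PPP1R15A, a regulatory subunit of the phosphatase that reverses the translation block, rose by 3.00 (SE 0.129), and WARS, the tryptophanyl-tRNA synthetase, rose by 1.69 (SE 0.0908). The 4 that fell include ALDH18A1, which makes proline precursors, at -0.96 (SE 0.0799), the kinase EIF2AK2 (PKR) at -0.46 (SE 0.0824) and GCN1, the activator of GCN2, at -0.44 (SE 0.0978). The adjusted p-values of the genes named from the 4 lists lay between 6.43e-10 and 0.00246 (edgeR).

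For lysosomal amino acid sensing by mTORC1, 11 of 35 tested genes rose and 7 fell, a share near that of all genes, and 4 fell with library totals or without DMSO replicate 2. SESN2, a leucine-regulated inhibitor of mTORC1, was at 110 ± 8.19 CPM with ML141 and 27.2 ± 3.52 CPM with DMSO (log2 fold change 2.02, SE 0.112), and it is also in the ATF4 list. FLCN, which activates RAG GTPases, and the lysosomal transcription factor TFE3 rose by 1.09 (SE 0.12) and 0.70 (SE 0.115). SEH1L and SEC13, which belong to the GATOR2 complex and to nuclear pores, and RRAGD fell by 0.75 (SE 0.0863), 0.50 (SE 0.0834) and 0.70 (SE 0.101).

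Among amino acid and peptide carriers outside the 7 families, 4 of 19 tested genes rose and 6 fell, so that 52.6% changed, near the 54.4% of all tested genes. The cystine exporter of lysosomes CTNS rose by 0.65 (SE 0.134), LRRC8D, a subunit of volume-regulated anion channels, by 0.56 (SE 0.118) and SFXN3 by 1.13 (SE 0.128). SFXN1, the mitochondrial serine carrier, was at 116 ± 11.4 CPM with ML141 and 248.7 ± 2.81 CPM with DMSO. SLC16A10 (TAT1), which carries aromatic amino acids, and SLC25A15, the mitochondrial ornithine carrier, fell by 1.61 (SE 0.154) and 1.02 (SE 0.0997). In the list of glutathione and thiol genes, 2 of 14 tested genes rose and 4 fell, and 4 rose without ML141 replicate 3. The list was drawn up around cystine, the cargo of SLC7A11, but also holds genes such as NQO1 and KEAP1 that do not use it. The changed share was 42.9%, against 54.4% of all tested genes. The share that rose was 14.3%, against 26.7%, and the share that fell was 28.6%, against 27.7%. CHAC1, which degrades glutathione and is an ATF4 target, was at 26.2 ± 3.79 CPM with ML141 and 4.28 ± 3.22 CPM with DMSO, and NQO1 rose by 0.92 (SE 0.159). CHAC2, a relative of CHAC1, fell by 2.13 (SE 0.136), glutathione reductase GSR by 0.76 (SE 0.0848) and thioredoxin TXN by 0.89 (SE 0.101).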

How the data were processed

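The deposited table holds raw whole-number counts per gene symbol, 1 column per library, and these counts were used here. The submitters' processing notes name hg38 as the build and, among the tools, featureCounts, Bowtie2, Trimmomatic, Picard, bcl2fastq 2.19 and DESeq2. How these were set, and whether strand was used in counting, is not given in the sources used here. Libraries were made with Illumina TruSeq RNA v2, per the labels' protocols. A further 6 columns of per-sample values, whose names mark them as normalized, were not used. Reads over exon junctions can be lost where Bowtie2 aligns to a genome, since it makes no spliced alignments.

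Genes were filtered with filterByExpr (minimum count 10, minimum total 15), scaled with TMM and compared by the quasi-likelihood test of edgeR 4.0.16 in R 4.3.3, 2-sided, group only, Benjamini-Hochberg over 11454 genes, threshold 0.05. The SE is the log2 fold change over the square root of F. Levels are means ± SD of TMM-scaled CPM. Exon lengths, positions and overlaps are from the GENCODE release 29 basic annotation on GRCh38, the same build as hg38, 1-based. Promoter windows are from RefSeq on GRCh38.p14.

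Replicate pairs differed by a chi-square per degree of freedom of 3.02 to 19.5, so none was a duplicate. The transporter genes and all lists were chosen with earlier results of these data known. Named genes were all tested transporters and, per list, up to 3 higher and 3 lower changed genes with the smallest p and a mean of at least 5 CPM. Alternatives tried were scaling by library totals, by upper quartiles or by DESeq2 size factors, no or a stricter low-count filter (mean count 10 per group and 1 CPM in 3 libraries), the DESeq2 1.42.0 Wald test, limma-voom 3.58.1, the replicate number as a block and leaving out each library. Light-chain shares with the longest transcript as gene length were added after seeing the data.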

Additional observations from a re-analysis of the deposited data

How the results depend on the processing

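Across the 24 transporter genes and all alternatives, 307 values kept their direction and their side of the threshold, 13 passed it only under an alternative, 9 lost it and 5 changed direction. The counts of transporter genes that rose and fell were 15 and 4 with library totals, and 9 to 14 and 4 to 5 when each library was left out. The 9 losses were in SLC1A5, SLC7A1 and SLC38A10 with a library left out. SLC38A5 had a log2 fold change of 0.06 with library totals, and SLC7A3 ranged from -0.11 to 0.23 when each library was left out. In the lysosomal sensing list 4 genes fell with library totals, and 4 to 9 fell when each library was left out. In the glutathione list 2 to 4 rose when each library was left out. The cause of these moves was not tested. SLC6A9 and SLC36A1 were not tested under the stricter filter. The differences between ML141 and DMSO in the light-chain shares of SLC7A5 and SLC7A6 moved by less than the replicate spread in every setting run. For these differences the settings were each library left out and the longest transcript as gene length.

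With the replicate number as a block, 14 transporter genes rose and 6979 genes changed in all, against 12 and 6230 without it. The added genes were SLC38A9 (edgeR adjusted p = 0.0339 with the block) and SLC43A1 (0.0223). The deviations of same-numbered libraries correlated at 0.37, 0.085 and 0.18. ML141 library 2 correlated best with DMSO library 3 at 0.29, and the other pairs of unlike number lay between -0.37 and -0.03. These values do not settle whether the numbers pair the libraries, and the main fit does not use them as pairs. The libraries of a number also share part of their names in the labels, which do not say what that part marks, so a shared experiment is possible. A gene with no count could still stand at up to 0.226 to 0.389 CPM in a single library.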
